A study of Mus musculus with 18 samples.

Results

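Oxidative phosphorylation couples the oxidation of NADH and succinate in mitochondria to the making of ATP. Complex I (NADH dehydrogenase), complex II (succinate dehydrogenase), complex III (the cytochrome bc1 complex) and complex IV (cytochrome c oxidase) pass electrons on to oxygen. Complex V, the ATP synthase, is driven by the proton gradient that complexes I, III and IV build. Most subunits are encoded in the nucleus, and retinoid and PPARδ ligands act on the expression of genes there.

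The genes described here were all those whose symbols begin with Ndufa, Ndufb, Ndufs, Ndufv, Ndufc, Uqcr, Cox4 to Cox8 or Atp5, or read Sdha to Sdhd, on probe sets with a single gene symbol. This rule took 89 of the 22180 genes measured, and used no expression value other than the choice of the brightest probe set per gene. Of them, 79 encode subunits: 32 of complex I, 4 of complex II, 7 of complex III, 19 of complex IV (with Ndufa4 and Ndufa4l2, named after complex I, counted in complex IV) and 17 of complex V. Another 8, Ndufaf1 to Ndufaf8, encode complex I assembly factors, which the symbol rule takes in although they are no subunits, and 2 are pseudogenes. A further 9 symbols that fit the rule, among them Cox6c, Ndufb2, Ndufs6 and Uqcr10, occurred only on probe sets shared by several symbols and were left out.

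NaF cells, a mouse mammary carcinoma line, were profiled on 18 Affymetrix arrays in 6 groups of 3. Cells of 12 samples were kept from 48 hours before ligand treatment in DMEM with 10% charcoal-treated FBS, which strips the serum of small lipophilic molecules. Of these, 3 were untreated controls, and 3 each received for 6 hours, at 1 µM, all-trans retinoic acid (the natural ligand of the retinoic acid receptors, RAR), TTNPB (a synthetic retinoid and RAR agonist) or GW1516 (a PPARδ agonist). The other 6 samples stayed in DMEM with 10% untreated FBS, 3 as untreated controls and 3 with 10 µM palmitate, a saturated fatty acid, for 6 hours. All groups are of 1 cell line, the labels name no vehicle in the controls, and they do not say that replicates were separate cultures, so the error behind each p-value is that between these samples and may be technical. The stated purpose was to see what RAR and PPARδ ligands do to expression across the genome.

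Values are log2 expression values, of which a difference of 1 is a doubling. The 2 sera gave arrays with different distributions, with medians of 1.06 to 1.32 in charcoal serum and 0.473 to 0.548 in full medium, so that each treatment was compared with its own serum's control and levels were not set across sera. Background, the 95th percentile of 1394 odorant and vomeronasal receptor genes, lay between 0.592 and 1.31 in the 6 groups. Of the mammary epithelial markers, 4 of 8 were above background in every group, against 0 of 3 basal, 1 of 6 fibroblast, 0 of 5 adipocyte, 1 of 5 immune and 1 of 4 endothelial markers, and none passed the test in any comparison with a control. Krt18 (8.06 with retinoic acid, 7.99 in its control) and Cdh1 (5.46 and 4.88) were the brightest epithelial markers in these groups. Krt8 (1.60 and 1.68) and Epcam (1.41 and 1.51) were close to background. Cldn7 was above background in no group and Krt7 in full-medium controls only. The fibroblast marker Pdgfra was about as bright as Cdh1 (5.66 and 4.88). The endothelial cadherin gene Cdh5 was at 8.73 with retinoic acid and 8.90 in its control. The third GW1516 array stood apart: its genes lay on average 0.231 from their group means, against 0.0816 to 0.145 on the other 17 arrays.

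Most of the oxidative phosphorylation genes were above background. Of the 89 genes, 76 were above background in all 6 groups, 5 in some and 8 in none. The 8 were the tissue-restricted or testis isoform genes of cytochrome c oxidase Cox6b2, Cox7a1, Cox7b2, Cox8b and Cox8c, with Ndufa4l2, Ndufs5 and the pseudogene Uqcrh-ps1. Cox7a1 and Cox8b, isoforms of heart and skeletal muscle, lay between 0.329 and 1.53 and between 0.256 and 1.43 on the 18 arrays. Cox6a2, the muscle isoform of subunit 6a, lay between 0.259 and 1.83, and its mean was above background only with GW1516, where the third array was highest (0.923, 1.17 and 1.83). Cox4i2, an isoform of subunit 4 linked to low oxygen, was above background in 4 groups. Ndufs5, an accessory subunit of complex I, was listed between 0.243 and 1.13 on the probe set used, not above background in any group, and a probe set that it shares with the pseudogene symbol Ndufs5-ps was not used.

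After 6 hours, hardly any of these genes passed the test in any comparison. In limma's moderated test with Benjamini-Hochberg adjustment over all 22180 genes and a threshold of 0.05, 1 of 89 fell with retinoic acid (Atp5md), 0 passed with TTNPB, 0 with GW1516, and 1 rose with palmitate (Cox4i1). Of all genes, 5.29% passed with retinoic acid, 1.26% with TTNPB, 2.57% with GW1516 and 0.681% with palmitate; 1.47% fell with retinoic acid and 0.144% rose with palmitate. At an unadjusted p below 0.05, the counts among the 89 were 10 with retinoic acid, 11 with TTNPB, 11 with GW1516 and 14 with palmitate. Those are 11.2%, 12.4%, 12.4% and 15.7% of the set, and the shares over all genes were 16.4%, 11.2%, 15.4% and 7.00%. The 3 treated arrays lay wholly above or wholly below the 3 controls for 25, 22, 10 and 17 of the 89 genes, and for 24.1%, 17.9%, 16.3% and 15.2% of all genes. The 3 ligand comparisons share the same 3 control arrays.

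**Figure D1:**
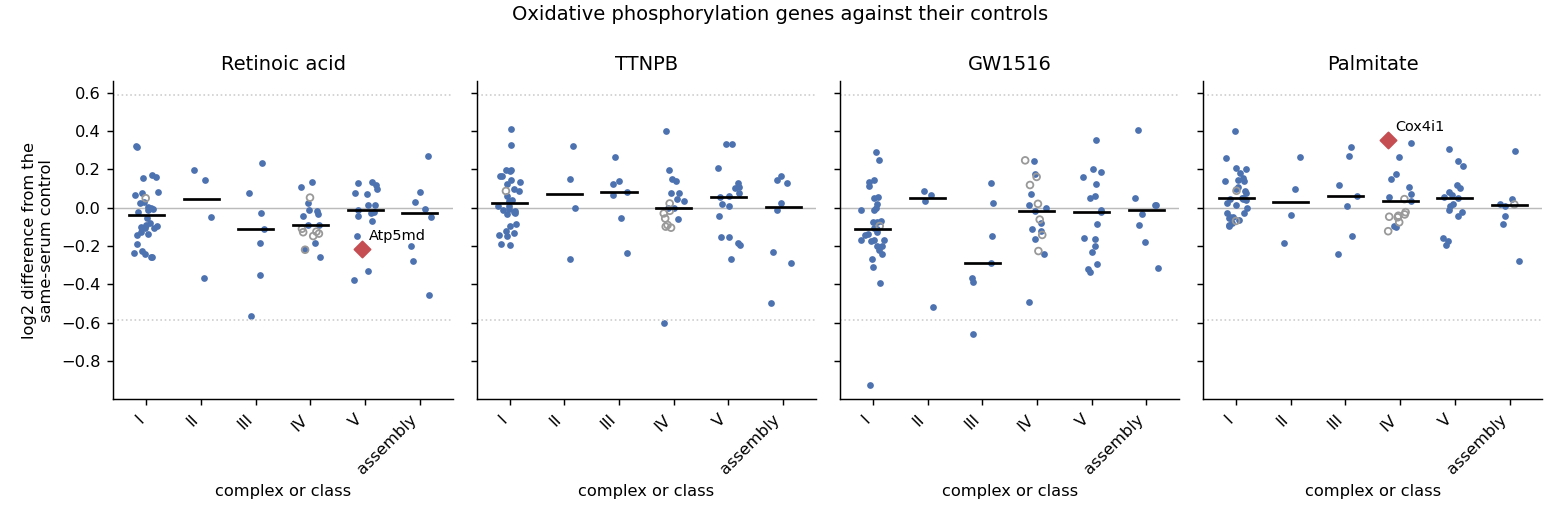
Log2 difference from the same-serum control (y axis) of 87 genes, by complex or as complex I assembly factors (x axis), 1 panel per treatment; filled points are above background in both groups, open points are not, bars are medians, and dotted lines mark 1.5-fold. The diamonds are the genes that passed the test, Atp5md with retinoic acid (-0.22) and Cox4i1 with palmitate (0.35), and the class medians lie between -0.29 (complex III with GW1516, -0.0493 without the third array) and 0.083.

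The medians of the set were as small as these counts. The median log2 difference was -0.038 with retinoic acid, 0.0217 with TTNPB, -0.0729 with GW1516 and 0.0443 with palmitate, beside -0.0285, -0.00402, -0.00997 and -0.00137 over all genes. Lower values than in the control were seen for 57 of the 89 genes with retinoic acid, 39 with TTNPB, 54 with GW1516 and 34 with palmitate. The retinoic acid median turned to 0.0189, with 39 genes lower, when arrays were centred on their medians, and that over all genes to 0.0283. The TTNPB median turned to -0.0101, with 46 genes lower, without the second charcoal control (-0.00208 over all genes). The GW1516 median moved to -0.0314, beside -0.05 over all genes, without the third GW1516 array. That array lay lowest of the 18 relative to its control (-0.108).

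**Figure D2:**
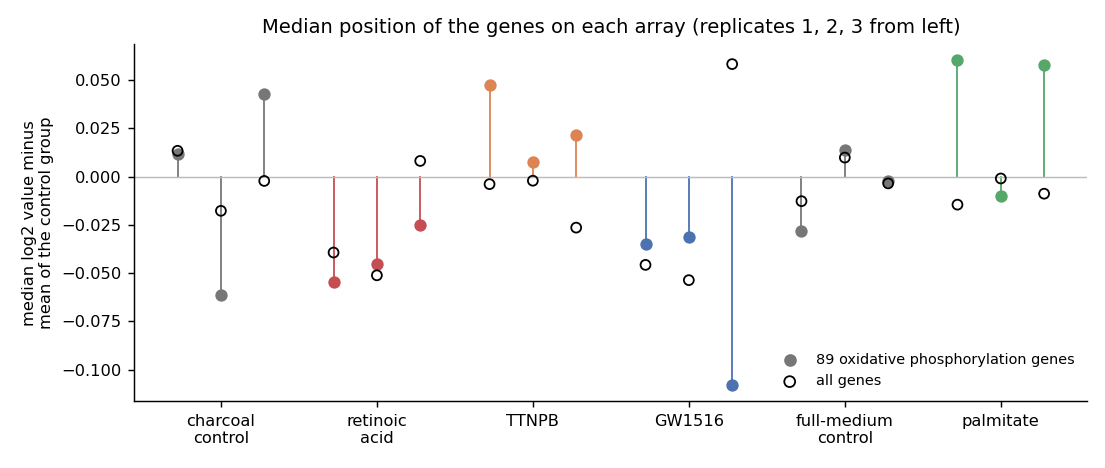
Median log2 value of the 89 genes (filled) and of all 22180 genes (open) on each of the 18 arrays, minus the mean of the 3 control arrays of the same serum (y axis), by group (x axis). The third GW1516 array is at -0.108 for the 89 genes and 0.0583 for all genes, and the 3 charcoal controls span -0.0614 to 0.0429.

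The measurements were tight enough to bound most of these differences. Among members above background in both groups, the 95% interval of the difference lay within 1.5-fold in either direction for 64 of 79 genes with retinoic acid, 64 of 79 with TTNPB, 63 of 79 with GW1516 and 65 of 76 with palmitate. Over all genes above background, that share was 56.6%, 64.1%, 59.0% and 70.0%, against 81.0%, 81.0%, 79.7% and 85.5% here. Within 1.25-fold the counts were 26, 25, 22 and 24. For the rest, a change of 1.5-fold in one direction was inside the interval. The spread between replicates was small: the median SD of these genes was 0.0735 to 0.118 in 5 groups and 0.212 with GW1516.

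Complex I takes electrons from NADH and hands them to ubiquinone. Its 32 genes had median differences of -0.0365 with retinoic acid, 0.0231 with TTNPB, -0.11 with GW1516 (-0.0185 without the third GW1516 array) and 0.0477 with palmitate, and none passed the test. Of the N-module genes, Ndufv1, which binds NADH and FMN, had its largest difference with TTNPB, at 0.20 ± 0.07 SE (adjusted p = 0.173). Ndufs1, the largest iron-sulfur subunit, stayed within 0.11 of its control in every comparison. Ndufv3, a small accessory subunit of the same module, read 6.01, 5.89 and 5.91 in charcoal controls and 6.39, 6.26 and 6.39 with TTNPB. That is a log2 difference of 0.41 ± 0.14 SE (adjusted p = 0.202), with no overlap between the arrays. Ndufv3 was also above every control on all 3 retinoic acid arrays (6.39, 6.23 and 6.15) and on 2 of 3 with GW1516 (6.38, 6.42 and 5.88). Without the third GW1516 array, Ndufv3 passed with GW1516 (0.46 ± 0.12 SE, adjusted p = 0.0402).

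In the Q module, Ndufs7, which carries the last iron-sulfur cluster before ubiquinone, read 10.00, 9.90 and 9.89 in charcoal controls and 9.79, 9.77 and 9.41 with GW1516. The difference of -0.27 ± 0.08 SE did not pass (adjusted p = 0.0814), although the arrays did not overlap, and it was -0.15 ± 0.05 SE without the third GW1516 array (adjusted p = 0.121). Ndufs3 and Ndufs8, of the same module, differed from control by at most 0.16 and 0.21. The largest difference of any of the 89 genes belonged to Ndufa11, an accessory membrane-arm subunit, and rested on 1 array. It read 7.90, 7.82 and 7.77 in controls and 7.51, 7.76 and 5.46 with GW1516, a difference of -0.92 ± 0.36 SE (adjusted p = 0.206) that became -0.20 ± 0.12 SE without the third GW1516 array. A dimmer second probe set of Ndufa11 (mean 2.09 against 7.63) gave -0.61 with GW1516. With retinoic acid the second set gave 0.43 and the brighter one -0.11. With retinoic acid the extremes in complex I were Ndufb7 at -0.26 (adjusted p = 0.33) and Ndufa1 at 0.32 (0.476). Ndufb9, an accessory subunit of the membrane arm, was closest to the threshold there at -0.24 ± 0.08 SE (adjusted p = 0.0945). With palmitate the highest was Ndufa6, an accessory subunit of the LYR family, at 4.81, 4.86 and 4.85 in controls and 5.20, 5.28 and 5.24 with palmitate. All 3 palmitate arrays lay above all 3 controls, and the difference was 0.40 ± 0.13 SE (adjusted p = 0.251).

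The 8 complex I assembly factors, which help build the complex and are not part of it, did not pass in any comparison. Their differences ran from -0.50 (Ndufaf1 with TTNPB, adjusted p = 0.424) to 0.40 (Ndufaf5 with GW1516, adjusted p = 0.311). Of 6 other complex I assembly genes measured, 0 passed.

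Complex II oxidises succinate in the citric acid cycle and is wholly nuclear encoded, so that its 4 genes make the entire enzyme. None passed, and the 2 membrane anchors lay on opposite sides of the control. Sdhd read 7.82, 7.70 and 7.51 in charcoal controls, 7.24, 7.33 and 7.35 with retinoic acid, 7.44, 7.37 and 7.40 with TTNPB, and 7.37, 7.50 and 6.62 with GW1516. Every treated array lay below every control, by -0.37 ± 0.16 SE, -0.27 ± 0.16 SE and -0.52 ± 0.16 SE (adjusted p = 0.242, 0.605 and 0.0984). Without the third GW1516 array the last of these was -0.25 ± 0.10 SE (adjusted p = 0.194). The SE of each comparison pools the spread of all groups. For Sdhd the SD was 0.472 with GW1516, against 0.158 in charcoal controls, 0.0626 with retinoic acid and 0.035 with TTNPB. In the fit to the 6 arrays of the comparison alone, Sdhd passed with retinoic acid (adjusted p = 0.0196). Sdhc read 7.78, 7.57 and 7.84 in controls and 7.93, 8.02 and 8.20 with TTNPB, a difference of 0.32 ± 0.09 SE (adjusted p = 0.0966). With retinoic acid the difference of Sdhc was 0.20 ± 0.09 SE (adjusted p = 0.281), and with GW1516 0.09 ± 0.09 SE (adjusted p = 0.701). Sdha, the flavoprotein, was 7.73, 7.68 and 7.57 in full-medium controls and 7.48, 7.50 and 7.44 with palmitate, lower on all 3 arrays by -0.19 ± 0.07 SE (adjusted p = 0.423). Sdhb, the iron-sulfur subunit, differed by 0.26 ± 0.16 SE with palmitate and by no more than 0.05 with any ligand.

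Complex III passes electrons from ubiquinol to cytochrome c. Its 7 genes had medians of -0.112 with retinoic acid, 0.083 with TTNPB, 0.0628 with palmitate and -0.29 with GW1516, the last of which was -0.0493 without the third GW1516 array. Uqcrh, the hinge protein, read 4.65, 4.49 and 4.85 in charcoal controls and 4.20, 4.36 and 3.46 with GW1516. The arrays did not overlap, and the difference was -0.66 ± 0.18 SE (adjusted p = 0.0545), or -0.38 ± 0.13 SE without the third GW1516 array (adjusted p = 0.125). The Rieske iron-sulfur protein gene Uqcrfs1 read 4.60, 4.52 and 3.13 with GW1516, and its difference of -0.39 ± 0.26 SE became 0.09 ± 0.14 SE without the third array. Uqcrc1, a core protein, likewise went from -0.29 ± 0.13 SE to -0.05 ± 0.07 SE. With retinoic acid, Uqcr11, a small subunit, read 3.96, 3.83 and 4.18 against 4.59, 4.34 and 4.74 in controls. All 3 were below the controls, by -0.56 ± 0.18 SE (adjusted p = 0.0736). Uqcrb, a ubiquinone-binding subunit, read 7.86, 7.97 and 8.01 with palmitate against 7.70, 7.57 and 7.77 in its controls (0.27 ± 0.09 SE, adjusted p = 0.322). The core protein gene Uqcrc2 differed by at most 0.14 in any comparison.

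**Figure D3:**
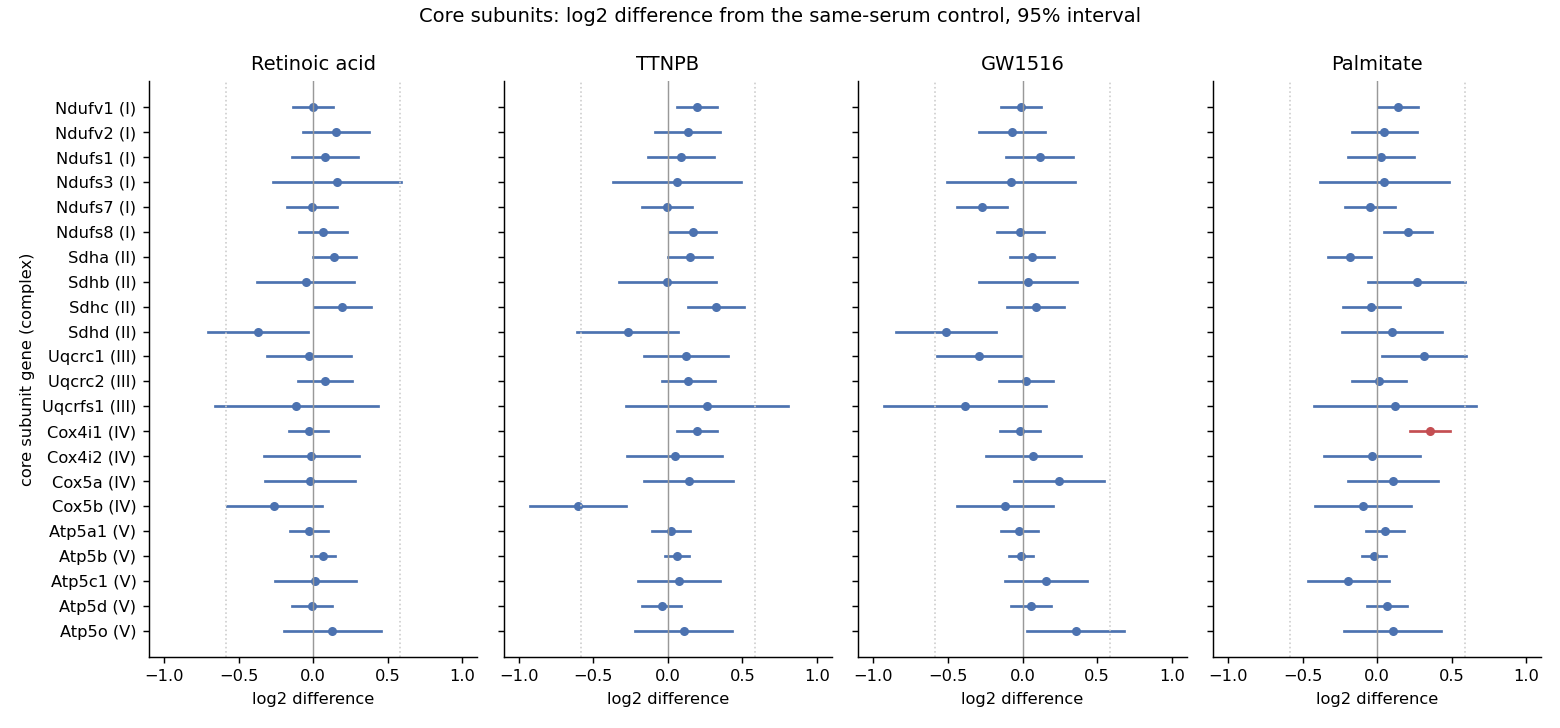
Log2 difference from the same-serum control with its 95% interval (x axis) for 22 core subunit genes of complexes I to V (y axis), 1 panel per treatment; dotted lines mark 1.5-fold. Only Cox4i1 with palmitate (0.35) passed the test among these genes, and the farthest points from 0 are Cox5b with TTNPB (-0.60) and Sdhd with GW1516 (-0.52, or -0.25 without the third GW1516 array).

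Complex IV reduces oxygen, and 1 of its 19 genes rose. Cox4i1, the ubiquitous isoform of subunit 4, read 8.55, 8.58 and 8.63 in full-medium controls and 8.88, 8.95 and 8.99 with palmitate. All 3 palmitate arrays lay above all 3 controls, by 0.35 ± 0.06 SE, or 1.28-fold (95% interval 0.22 to 0.49, adjusted p = 0.0105). In charcoal serum Cox4i1 read 8.44, 8.37 and 8.41 in controls, 8.35, 8.35 and 8.43 with retinoic acid, 8.32, 8.43 and 8.42 with GW1516, and 8.56, 8.60 and 8.65 with TTNPB. The retinoic acid and GW1516 arrays overlapped the controls (-0.03 and -0.02), and the TTNPB arrays lay above them by 0.20 ± 0.06 SE without passing (adjusted p = 0.173). The palmitate effect on Cox4i1 exceeded the retinoic acid effect by 0.38 ± 0.09 SE (adjusted p = 0.0267). Against GW1516 the difference between effects was 0.37 ± 0.09 SE (adjusted p = 0.0517), and against TTNPB 0.16 ± 0.09 SE (adjusted p = 0.738). These contrasts of effects were chosen after the values had been seen. Palmitate was given in full medium and the ligands in charcoal serum. A difference between their effects can therefore not be told apart from one of serum or array scale. The Cox4i1 call did not hold in 5 of 15 alternative settings (adjusted p up to 0.149). Among them were the fit to the 6 arrays alone and those without the second control or the third palmitate array. For palmitate the fit to arrays of the same serum is that same 6-array fit, and both are counted among the 15.

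**Figure D4:**
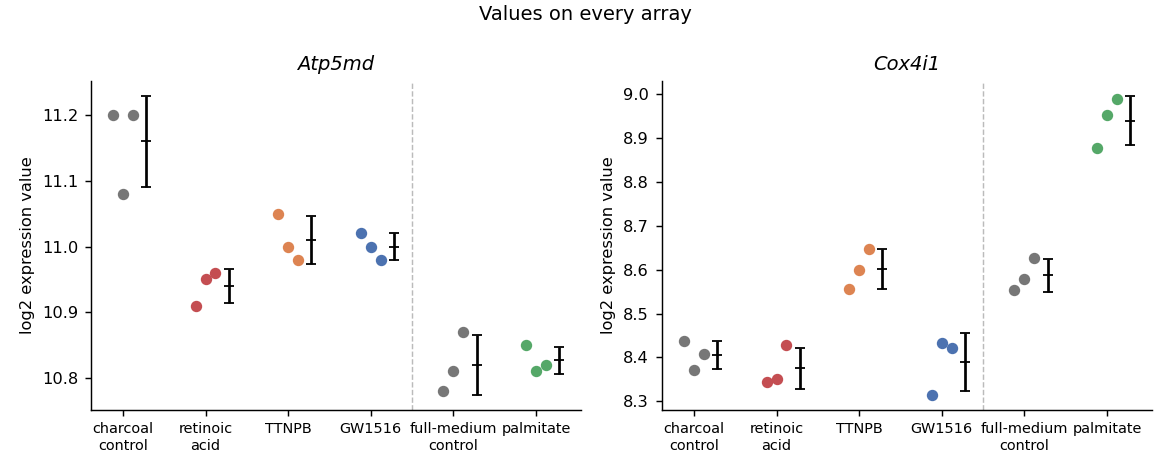
Log2 expression values on all 18 arrays (y axis) by group (x axis) for the 2 genes that passed the test, with group mean and SD (n = 3) beside the points; the dashed line parts the sera, whose levels are not comparable. Atp5md is at 10.91 to 10.96 with retinoic acid and 11.08 to 11.20 in its controls, and Cox4i1 at 8.88 to 8.99 with palmitate and 8.55 to 8.63 in its controls.

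Cox5b, a zinc-binding structural subunit, had the largest complex IV difference, with TTNPB. It read 7.22, 7.24 and 7.24 in charcoal controls, 6.38, 6.61 and 6.91 with TTNPB and 7.03, 7.04 and 6.85 with retinoic acid. Both retinoid groups lay wholly below the controls, at -0.60 ± 0.15 SE with TTNPB (adjusted p = 0.0651) and -0.26 ± 0.15 SE with retinoic acid (adjusted p = 0.444). A far dimmer second probe set of Cox5b (mean 0.872 against 6.72) gave -0.10 and -0.02. Cox6a1, the ubiquitous isoform of subunit 6a, read 11.64, 11.44 and 11.64 in controls and 11.52, 11.62 and 10.11 with GW1516. Its difference of -0.49 ± 0.24 SE became -0.01 ± 0.06 SE without the third array. Cox5a differed by at most 0.24 (with GW1516, 0.03 without the third array), and Cox7c, a small subunit, was highest with TTNPB at 0.40 ± 0.20 SE (adjusted p = 0.479).

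Complex V makes ATP in its F1 head as protons turn its membrane rotor. Atp5md, a small membrane subunit of the enzyme (DAPIT), fell with retinoic acid. It read 11.20, 11.08 and 11.20 in charcoal controls and 10.91, 10.95 and 10.96 with retinoic acid, a difference of -0.22 ± 0.04 SE, or 1.16-fold lower (95% interval -0.31 to -0.13, adjusted p = 0.00556). It read 11.05, 11.00 and 10.98 with TTNPB and 11.02, 11.00 and 10.98 with GW1516. All 9 ligand arrays were below all 3 controls, and the differences with TTNPB (-0.15 ± 0.04 SE, adjusted p = 0.113) and GW1516 (-0.16 ± 0.04 SE, adjusted p = 0.0565) did not pass. Without the third GW1516 array the latter did (-0.15 ± 0.04 SE, adjusted p = 0.0293). Retinoic acid and TTNPB were not told apart for Atp5md (-0.07 ± 0.04 SE, 95% interval -0.16 to 0.03, adjusted p = 0.793). In full medium it read 10.78, 10.81 and 10.87 without and 10.85, 10.81 and 10.82 with palmitate, which overlap. The retinoic acid call was lost in 2 of 15 alternative settings, with no variance trend and with arrays centred on their medians (adjusted p up to 0.312).

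None of the F1 genes passed the test. Atp5b, the catalytic beta subunit, spanned 11.72 to 11.94 over all 18 arrays and differed from control by 0.07, 0.06, -0.01 and -0.02 with retinoic acid, TTNPB, GW1516 and palmitate (± 0.04 SE). Atp5a1, the alpha subunit, differed by at most 0.05 (± 0.06 SE) and Atp5d, the delta subunit, by at most 0.06 on its brightest probe set. A second probe set of Atp5d, of like brightness (mean 9.81 against 9.87), gave -0.27 with retinoic acid and 0.32 with palmitate. Atp5c1, the gamma subunit of the central stalk, was at -0.19 ± 0.13 SE with palmitate (adjusted p = 0.989). Its probe set was close to background, at 0.907 in full-medium controls and 0.714 with palmitate, where background was 0.592 and 0.626. Atp5e, the epsilon subunit, read 7.46, 7.29 and 7.33 in charcoal controls and 7.73, 7.64 and 7.72 with TTNPB. Its differences were 0.33 with TTNPB, 0.24 with palmitate, 0.18 with GW1516 and -0.02 with retinoic acid. A dimmer second probe set of Atp5e gave 0.21, 0.08, -0.35 and -0.04. Of the peripheral stalk, Atp5o was highest with GW1516 at 0.36 ± 0.16 SE (adjusted p = 0.275) and Atp5j lowest at -0.34 ± 0.17 SE (adjusted p = 0.366). Without the third GW1516 array these were 0.24 ± 0.16 SE and -0.04 ± 0.11 SE. Of the 3 genes for the rotor's c subunit, Atp5g2 was higher on all palmitate arrays (10.07, 9.93 and 9.93) than in controls (9.76, 9.76 and 9.76), by 0.22 ± 0.06 SE (adjusted p = 0.146). A second probe set of Atp5g2 gave 0.27. Atp5g3 with retinoic acid was at -0.33 (adjusted p = 0.124), and Atp5g1 had the lowest value among the 89 genes when retinoic acid was set against TTNPB.

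The ligands were also set against one another at the same dose and time, in 3 pairs. None of the 89 genes passed between retinoic acid and TTNPB, both RAR agonists, where 0.153% of all genes did. At an unadjusted p below 0.05, 10 of the 89 did (11.2%, against 7.27% of all genes). With retinoic acid 68 of the 89 were lower than with TTNPB, at a median of -0.0577 beside -0.0103 over all genes. With arrays centred on their medians this became 49 of 89 and -0.0108, beside 0.0366 over all genes. The interval lay within 1.5-fold for 64 of 79 genes above background, and the largest difference was Atp5g1 at -0.48 (95% interval -1.09 to 0.12, adjusted p = 0.765). Between retinoic acid and GW1516 none passed (0.352% of all genes), and the median was 0.0013. At an unadjusted p below 0.05 there were 13 (14.6%, against 9.30% of all genes). Between TTNPB and GW1516 none passed (0.0676% of all genes), with 19 at an unadjusted p below 0.05 (21.3%, against 10.5% of all genes). The median was 0.0907, beside 0.001 over all genes. Without the third GW1516 array it was 0.0513, beside 0.0357 over all genes. Adjusted over the 3 pairs together as well as over genes, 0 of the 89 genes passed, with a smallest adjusted p of 0.141.

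Around the complexes, a few genes passed the test with the ligands. The shares over all genes were 5.29% with retinoic acid, 1.26% with TTNPB and 2.57% with GW1516. Among 15 regulators of mitochondrial biogenesis, Ppargc1a, the coactivator PGC-1α, read 7.40, 7.41 and 7.41 in charcoal controls. It read 7.87, 7.91 and 8.06 with retinoic acid, 7.77, 7.78 and 7.74 with TTNPB, and 8.09, 8.17 and 8.03 with GW1516. All 9 ligand arrays lay above all 3 controls, and it rose by 0.54 ± 0.09 SE (adjusted p = 0.000896), 0.36 ± 0.09 SE (adjusted p = 0.0481) and 0.69 ± 0.09 SE (adjusted p = 0.000514). The TTNPB call held in 6 of 15 alternative settings only. Palmitate gave 0.03 (adjusted p = 1). With retinoic acid, Tfb1m, a mitochondrial ribosomal RNA methyltransferase, also rose (0.50 ± 0.13 SE, adjusted p = 0.0242) and the transcription factor gene Yy1 fell (-0.41 ± 0.12 SE, adjusted p = 0.0493). The Yy1 call held in 7 of 15 settings and the Tfb1m call in 11. Of the other transcription factor genes, Nrf1, Gabpa and Esrra did not pass in any comparison with a control: Nrf1 ranged from -0.02 to 0.28, Gabpa from -0.12 to 0.51 and Esrra from -0.46 to 0.24. Tfam, the mitochondrial DNA packaging factor, ranged from -0.29 to 0.28, the coactivator gene Ppargc1b from -0.01 to 0.21, and Lrpprc, a mitochondrial mRNA-binding protein, from -0.15 to 0.13.

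**Figure D5:**
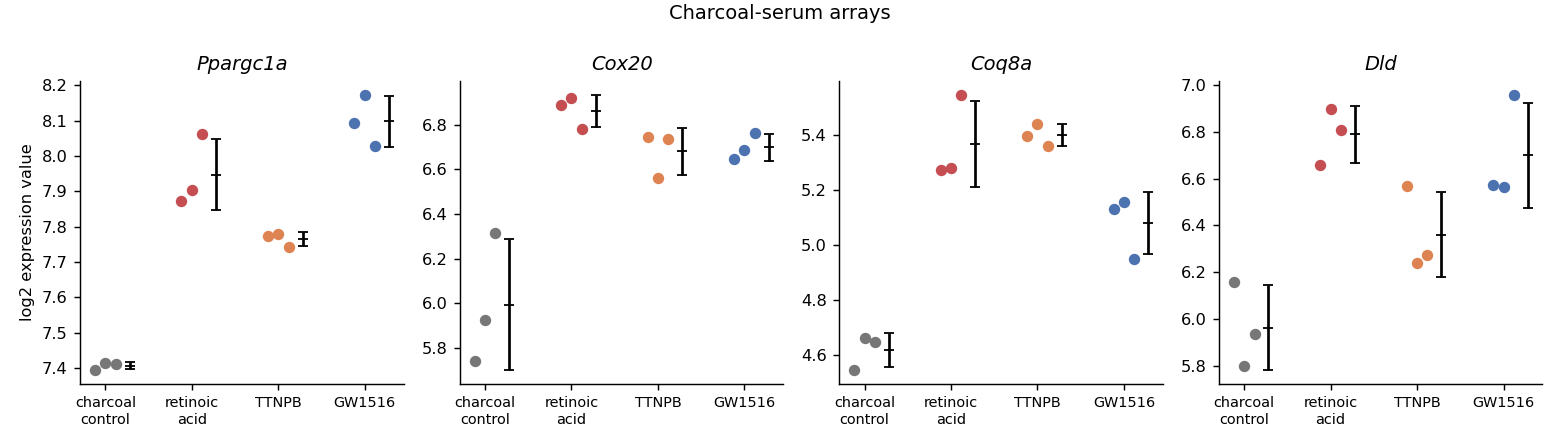
Log2 expression values on the 12 charcoal-serum arrays (y axis) by group (x axis) for 4 genes outside the complexes, with group mean and SD (n = 3). All 9 ligand arrays lie above the 3 controls for each gene; Dld with TTNPB (0.40, adjusted p = 0.314) is the only one of the 12 differences that did not pass.

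Of 31 genes for assembly of complexes II to V, Cox20, a chaperone of cytochrome c oxidase subunit 2, read 5.74, 5.92 and 6.32 in charcoal controls and 6.56 to 6.92 on the 9 ligand arrays. It rose by 0.87 ± 0.15 SE with retinoic acid (adjusted p = 0.00163), 0.69 ± 0.15 SE with TTNPB (adjusted p = 0.0277) and 0.70 ± 0.15 SE with GW1516 (adjusted p = 0.0161), all against the same controls. The 3 calls held in 15, 9 and 12 of 15 alternative settings. With retinoic acid 2 others fell: Coa3, which acts in the translation of cytochrome c oxidase subunit 1, by 0.44 ± 0.09 SE (adjusted p = 0.00918), and Cox10, which makes heme O, by 0.41 ± 0.10 SE (adjusted p = 0.0186). The Coa3 call held in 13 of 15 settings and the Cox10 call in 9. Of 10 genes of coenzyme Q synthesis, Coq8a, an atypical kinase of that pathway, rose with retinoic acid (0.75 ± 0.11 SE, adjusted p = 0.000552), TTNPB (0.78 ± 0.11 SE, adjusted p = 0.00144) and GW1516 (0.46 ± 0.11 SE, adjusted p = 0.0353), and the GW1516 call held in 6 of 15 settings. Coq4 fell with GW1516 (-0.75 ± 0.19 SE, adjusted p = 0.0474), where the third array was lowest at 5.38 and the difference without it was -0.47 (adjusted p = 0.107), and this call held in 5 of 15 settings.

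Of 15 genes of the citric acid cycle and its dehydrogenases, Dld, the lipoamide dehydrogenase, read 6.16, 5.80 and 5.94 in charcoal controls, 6.66, 6.90 and 6.81 with retinoic acid and 6.57, 6.56 and 6.96 with GW1516. It rose by 0.83 ± 0.16 SE and 0.74 ± 0.16 SE (adjusted p = 0.00427 and 0.0191), of which the GW1516 call held in 12 of 15 settings. Of 5 nucleotide carriers and uncoupling proteins, Slc25a5, which exchanges ADP for ATP, fell with retinoic acid (-0.22 ± 0.06 SE, adjusted p = 0.0259) and GW1516 (-0.27 ± 0.06 SE, adjusted p = 0.0127). These calls held in 7 and 11 of 15 settings (adjusted p up to 0.426 and 0.333). Of 39 mitochondrial ribosome genes, only Mrpl12 fell with retinoic acid (-0.45 ± 0.10 SE, adjusted p = 0.00807, held in 13 of 15 settings), and 0 passed with TTNPB or GW1516. None of 10 measured genes of the mitochondrial genome and none of 9 electron carriers and subunits outside the symbol rule passed. These include Cyc1 (cytochrome c1) at -0.22 to 0.14 and Cycs (cytochrome c) at -0.43 to 0.19; without the third GW1516 array their GW1516 differences were -0.09 and -0.16. With palmitate, 0 genes passed in any of these lists, against 0.681% of all genes.

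The promoters of subunit genes were compared with those of all genes. RefSeq windows of 250 bases before the transcription start (GRCm38.p6) were at hand for 72 of the 89 genes, 65 of them subunit genes. The letters GCGCATGCGC, a palindrome bound by NRF1, were in 4 of the 65 (6.15%), against 0.877% of all 27025 genes with a window. They are shown here because NRF1 is a known regulator of respiratory subunit genes, with the motif in capitals and the coding strand 5′ to 3′:
Atp5g2: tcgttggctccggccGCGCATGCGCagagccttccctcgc
Atp5k: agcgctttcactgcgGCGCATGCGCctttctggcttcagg
Cox6a1: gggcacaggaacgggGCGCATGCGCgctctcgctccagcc
Ndufa11: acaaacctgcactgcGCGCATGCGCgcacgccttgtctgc
They lie at chr15:102671065-102671104 (minus strand), chr5:108434425-108434464 (minus strand), chr5:115349096-115349135 (minus strand) and chr17:56717687-56717726 (plus strand), with the motif's first base 42, 50, 162 and 60 bases before the start. None of these 4 genes passed the test in any comparison with a control.

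The shorter core GCATGCGC, which lies inside that palindrome, was in 8 of 65 windows on either strand (12.3%, against 2.56% of all genes). CCGGAAG, an ETS-family motif of the kind that GABPA binds, was in 12 (18.5% against 7.83%), and the YY1 motif GCCATNTTG in 3 (4.62% against 1.54%). The direct repeats that receptors for the ligands used here are known to bind, AGGTCANNNNNAGGTCA (RAR) and AGGTCANAGGTCA (PPAR), were in 0 of the 65 windows, and in 0.0111% and 0.0407% of all genes' windows. A single AGGTCA, part of both repeats, was in 9 (13.8% against 15.8%). Only these exact letters in these windows were searched, on both strands.

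Of the 72 genes, 21 had the start of another gene, on the opposite strand, within 1000 bases. Of 18 such partners measured, 1 passed with retinoic acid, 1 with TTNPB and 0 with GW1516 or palmitate. Over all genes 5.29%, 1.26%, 2.57% and 0.681% passed. The partner that passed with retinoic acid was Timm8b, which starts 52 bases from Sdhd. Timm8b was at -0.35 ± 0.10 SE there (adjusted p = 0.0403), and Sdhd, which did not pass, at -0.37. With TTNPB and GW1516 Timm8b was at -0.28 and -0.29 and did not pass (adjusted p = 0.213 and 0.139). Atp5md starts 119 bases from Pdcd11, which acts in ribosomal RNA processing. The stretch between the starts (chr19:47090648-47090765, shown on the Atp5md strand), printed because Atp5md is the subunit gene that fell, holds none of the motifs searched:
Atp5md: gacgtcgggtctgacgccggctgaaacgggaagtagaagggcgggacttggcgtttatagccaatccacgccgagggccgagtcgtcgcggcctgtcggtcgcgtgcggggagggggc
Pdcd11 differed by -0.34 ± 0.15 SE with retinoic acid (adjusted p = 0.249) and fell with TTNPB by 0.63 ± 0.15 SE (adjusted p = 0.0379). Atp5j, a peripheral stalk subunit, starts 148 bases from Gabpa, which encodes the DNA-binding subunit of GABP. Their shared stretch (chr16:84834977-84835123, on the Atp5j strand) holds 1 ETS motif, in capitals:
Atp5j: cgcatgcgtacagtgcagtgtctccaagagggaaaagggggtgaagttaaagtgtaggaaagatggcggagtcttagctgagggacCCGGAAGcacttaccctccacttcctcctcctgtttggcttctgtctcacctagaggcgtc
With GW1516 Gabpa was at 0.51 ± 0.15 SE (adjusted p = 0.0708) and Atp5j at -0.34 ± 0.17 SE, and neither passed. Without the third GW1516 array Gabpa passed (0.62 ± 0.15 SE, adjusted p = 0.0316) and Atp5j was at -0.04 ± 0.11 SE.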

How the data were processed

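The authors' deposited log2 values were used as given. Partek is named in the submitters' processing notes; its version and the background correction, normalization and summary are not given in the sources used here, and the base of the logarithm was inferred from their range. Of 41345 probe sets, 23521 carried 1 symbol, 1814 several and 16010 none, and only the first were used. The brightest probe set stood for each of 1082 genes with several, among them 9 of the 89, and dim genes were kept. A limma model (3.58.1, R 4.3.3) gave each of the 6 groups its mean over the 18 arrays together (lmFit, eBayes with a variance trend, 12 residual degrees of freedom), tested on simulated data. P-values were 2-sided and adjusted by the Benjamini-Hochberg method over 22180 genes. With 3 arrays a group, their number limits the precision. Genes are named if they passed the test, had the highest or lowest difference of a complex, or were core subunits or listed regulators; others were named after their values were seen. Members and lists were chosen with earlier results of these data known, and the background definition after the data were seen. The alternatives were other fits, scalings, filters, probe sets and each replicate left out. Promoters and gene starts are from RefSeq, GRCm38.p6.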

Additional observations from a re-analysis of the deposited data

How the results depend on the processing

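Atp5md with retinoic acid and Cox4i1 with palmitate kept their direction in all 15 alternatives. Those that changed only the error estimate or the genes kept left the differences as they were (-0.2178 and 0.3525). Direction could not change in these. The number of the 89 genes that passed depended on the setting, as did the share of all genes that passed, given in brackets. With only the 6 arrays of a comparison it was 4 with retinoic acid (8.35%), 1 with TTNPB (2.25%) and 0 with palmitate (0.00451%). Between retinoic acid and TTNPB it was 1 (1.12%). The 4 were Atp5md, Sdhd, Uqcr11 and Uqcrb (adjusted p = 0.00222, 0.0196, 0.0427 and 0.0149). With GW1516, 3 of all 22180 genes passed in the 6-array fit (0.0135%), against 2.57% in the main fit. With no variance trend the number of the 89 genes was 0 with retinoic acid (5.78%) and 1 with GW1516 (3.02%). With quantile normalization it was 4 with retinoic acid (5.8%), 4 with TTNPB (2.2%), 1 with GW1516 (3.32%) and 1 between TTNPB and GW1516 (0.104%). With arrays centred on their medians it was 0 with retinoic acid (3.63%) and 0 with palmitate (0.144%). The retinoic acid median was then 0.0189, beside 0.0283 over all genes. With array weights it was 6 with retinoic acid (9.08%), 3 with TTNPB (2.8%), 4 with GW1516 (5.06%) and 5 with palmitate (2.98%). Between retinoic acid and GW1516 it was then 1 (0.879%). With dim genes left out it was 3, 1 and 2 with retinoic acid, TTNPB and GW1516 (12.1%, 3.68% and 7.06% of the 12346 genes kept). Leaving out 1 array at a time gave 1 with retinoic acid each time (2.63% to 4.2%) and 0 to 1 with TTNPB (0.505% to 0.766%). With GW1516 it gave 0 to 5 (0.893% to 3.21%), namely 3, 5 and 2 without its replicates 1, 2 and 3. It gave 0 to 1 with palmitate (0.28% to 0.636%) and 0 to 1 between retinoic acid and GW1516 (0.122% to 0.613%). The palmitate median then ran from 0.0114 to 0.076. The cause of these shifts was not tested. Each array was left out only for the comparisons that include its group. In these leave-out fits, comparisons without GW1516 therefore always kept the third GW1516 array, whose spread enters their pooled error. Deviations of same-numbered replicates from their group means had correlations from -0.23 to 0.171. Such deviations sum to 0 within each group of 3, so these correlations cannot settle whether same-numbered replicates were handled together. With the replicate block 1, 0, 0 and 1 of the 89 genes passed with retinoic acid, TTNPB, GW1516 and palmitate (4.65%, 0.893%, 2.25% and 0.505%). Arrays carry no counting depth, and genes near background have compressed differences.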
